A study of Mus musculus with 4 samples.

Results

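Meiotic crossovers are the sites at which homologous chromosomes exchange DNA, and they hold the homologs together until the first meiotic division. A group of proteins first defined in yeast and called ZMM marks and protects the recombination intermediates that will become crossovers, and the MutL endonuclease then cuts these intermediates to give the crossover. In the mouse testis this takes place in spermatocytes during meiotic prophase, with crossover sites chosen in pachytene. The genes described here are the 9 mouse genes Msh4, Msh5, Hfm1, Shoc1, Tex11, Rnf212, Ccnb1ip1, Cntd1 and Mlh3, taken by symbol from the 54232 genes of the count table. All 9 were found, with Shoc1 listed in the annotation under its older symbol AI481877.

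RNA was sequenced from whole testes of B6D2F1 mice at postnatal day 17, as 2 libraries of conditional Dis3 knockouts, labelled Dis3 KO, and 2 libraries of controls, labelled Dis3 WT. The product of Dis3 is a catalytic ribonuclease that works with the exosome core to degrade and trim RNA. The driver of the Cre recombinase, and so the cells that lose Dis3, is not given in the sources used here, and the labels do not tie libraries to animals. The p-values therefore measure only the spread among the 4 libraries, which may be technical.

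The gene table held 17663416 and 19255782 reads in KO replicates 1 and 2, and 31031920 and 40329170 reads in WT replicates 1 and 2, so WT libraries were deeper than KO libraries. Dis3 itself was lower in KO, at 39.4 and 42.8 CPM (reads scaled to a common library size with TMM factors) in KO replicates 1 and 2 and 80.0 and 80.4 CPM in WT replicates 1 and 2, a log2 fold change of -0.96 ± 0.0729 (SE; edgeR quasi-likelihood test, Benjamini-Hochberg adjusted p = 2.34e-09). These reads cover the whole gene and all cells of the testis. Background reads, measured upstream of genes too low to be tested, made up between 0.503% and 8.60% of the reads of a crossover gene in KO libraries and between 0.132% and 2.90% in WT libraries. The highest shares in both groups were those of Msh5.

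Every one of the 9 crossover genes was lower in KO. Their log2 fold changes (KO over WT) ranged from -0.68 for Rnf212 to -0.26 for Tex11, with a median of -0.47, and all 9 passed the edgeR quasi-likelihood test at an adjusted p of 0.05. In the same test 20.3% of the 25076 tested genes were lower (5092) and 11.6% were higher (2906) in KO. This split depended on the scaling: with libraries scaled to their totals alone 2971 genes were lower and 5386 higher, and with scaling to Sertoli cell markers 6764 were lower and 2033 higher, while all 9 crossover genes stayed below 0 under each. Of the 9254 tested genes whose average log2 CPM lay within the range of the crossover genes, 3.47 to 7.47, 41.2% were called lower, with a median of -0.16 on the log2 scale. Both KO libraries lay below both WT libraries for all 9 crossover genes, as they did for 32.7% of all tested genes and 57.8% of those in this range. In whole testes, fewer cells that express a gene and less of its RNA per cell cannot be told apart.

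**Figure D1:**
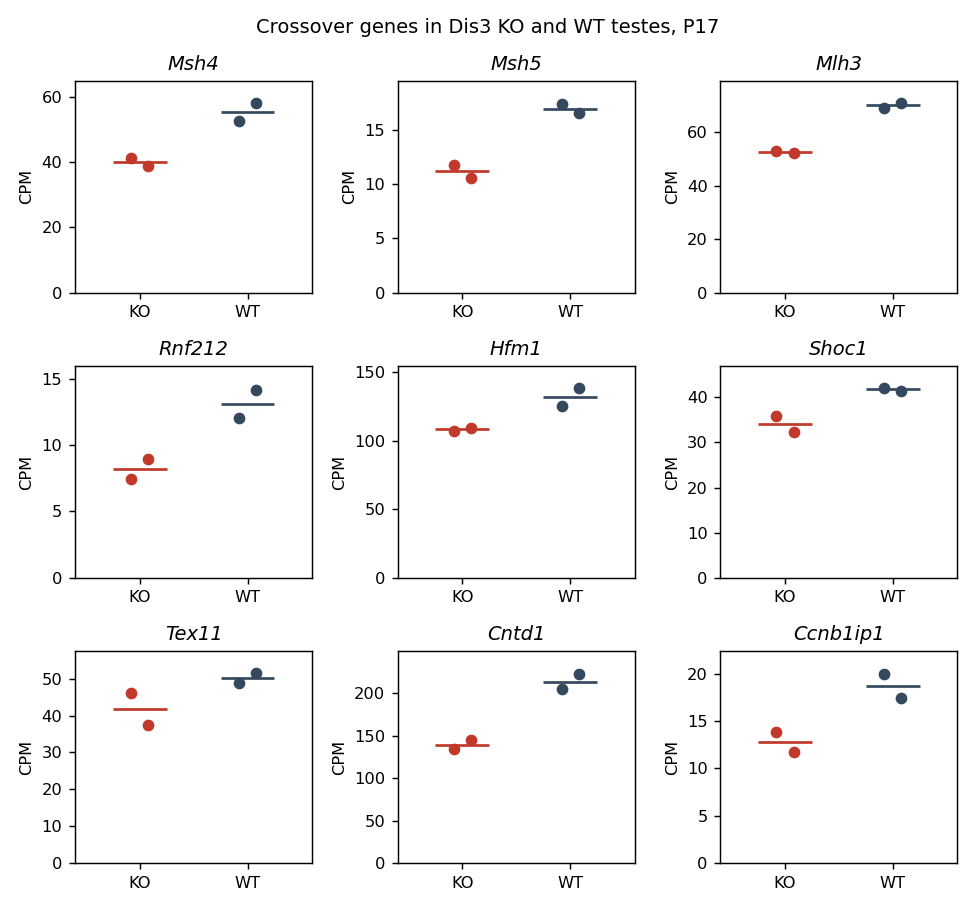
TMM-scaled CPM of the 9 crossover genes in each library, with KO left of WT; points are the 2 libraries of a group and lines their mean. In every panel both KO points lie below both WT points, with the smallest gap for Tex11 (46.3 CPM in the higher KO library and 48.8 CPM in the lower WT library).

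Msh4 and Msh5 encode the partners of the MutS gamma complex, a clamp on recombination intermediates that is made in meiosis. Msh4 (ENSMUSG00000005493, GRCm38 chromosome 3, 153857149 to 153906138) had 754 and 801 reads, or 41.2 and 38.8 CPM, in KO replicates 1 and 2, and 1560 and 2205 reads, or 52.6 and 58.0 CPM, in WT replicates 1 and 2. The KO values lay close together and below those of WT. Msh4 fell by 0.47 ± 0.0792 (SE) on the log2 scale (edgeR adjusted p = 7.39e-05). Msh5 (ENSMUSG00000007035, chromosome 17, 35028605 to 35046745) had 216 and 218 reads, or 11.8 and 10.6 CPM, in KO replicates 1 and 2, and 516 and 630 reads, or 17.4 and 16.6 CPM, in WT replicates 1 and 2. Its KO mean was 65.9% of its WT mean, and it fell by 0.60 ± 0.120 on the log2 scale (edgeR adjusted p = 0.000438). The 95% intervals of the changes of both partners overlapped, at -0.62 to -0.31 for Msh4 and -0.84 to -0.37 for Msh5, and their difference was not tested.

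Hfm1, Shoc1 and Tex11 act on the intermediates together with MutS gamma: Hfm1 encodes a DNA helicase, the mouse counterpart of yeast Mer3, Shoc1 the counterpart of yeast Zip2, and Tex11 an X-linked protein, the counterpart of yeast Zip4. Hfm1 (ENSMUSG00000043410, chromosome 5, 106840192 to 106926321) had 107 and 110 CPM in KO replicates 1 and 2, and 126 and 139 CPM in WT replicates 1 and 2. It fell by 0.29 ± 0.0647 on the log2 scale (edgeR adjusted p = 0.0014). Shoc1 (ENSMUSG00000038598, chromosome 4, 59043753 to 59138983) had 35.8 and 32.4 CPM in KO replicates 1 and 2, and 42.2 and 41.5 CPM in WT replicates 1 and 2, and it fell by 0.30 ± 0.0831 (edgeR adjusted p = 0.00867). Tex11 (ENSMUSG00000009670, chromosome X, 100838648 to 101059667) had 46.3 and 37.5 CPM in KO replicates 1 and 2, and 48.8 and 51.6 CPM in WT replicates 1 and 2. The higher KO library was thus near the lower WT library. Tex11 fell by 0.26 ± 0.0884 (edgeR adjusted p = 0.026), and this call was lost without KO replicate 2 (log2 fold change -0.17, adjusted p = 0.208) and without WT replicate 2 (-0.24, adjusted p = 0.0977), while without KO replicate 1 the log2 fold change was -0.44. Hfm1 lost its call without WT replicate 2 (-0.23, adjusted p = 0.0547). In these fits the group left with 1 library is assumed to vary like the other group. In the fit with all libraries these 3 genes had the smallest changes of the 9, with KO means between 81.5% and 83.5% of the WT means, and each of them lost its call when libraries were scaled to their totals alone.

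Rnf212 and Ccnb1ip1 encode RING-domain proteins of opposite roles in the choice of crossover sites. RNF212 keeps ZMM proteins on chromosomes at prospective crossover sites, while the product of Ccnb1ip1, also named HEI10, removes them elsewhere. Rnf212 (ENSMUSG00000055385, chromosome 5, 108729290 to 108774982) had 136 and 184 reads, or 7.44 and 8.91 CPM, in KO replicates 1 and 2, and 356 and 538 reads, or 12.01 and 14.1 CPM, in WT replicates 1 and 2. It had the fewest reads of the 9 genes, and it fell by 0.68 ± 0.142 (edgeR adjusted p = 0.000726). Its log2 fold change was the lowest of the 9 in this fit but not without KO replicate 1 (-0.58, against -0.71 for Msh5), without WT replicate 2 (-0.57, against -0.66 for Ccnb1ip1) or with libraries thinned to equal depth (-0.60, against -0.68 for Msh5). Ccnb1ip1 (ENSMUSG00000071470, chromosome 14, 50789248 to 50807732) had 253 and 243 reads, or 13.8 and 11.8 CPM, in KO replicates 1 and 2, and 591 and 663 reads, or 19.9 and 17.4 CPM, in WT replicates 1 and 2. Ccnb1ip1 fell by 0.55 ± 0.121 (edgeR adjusted p = 0.00123), so that the genes of both RING proteins were lower in KO. On the opposite strand Parp2, a DNA repair gene whose start lies 109 bases from that of Ccnb1ip1, had 51.8 and 48.2 CPM in KO replicates 1 and 2, and 65.9 and 66.1 CPM in WT replicates 1 and 2, and fell by 0.40 ± 0.0723 (edgeR adjusted p = 0.000151). Rpph1, which shares 284 bases and the strand with Ccnb1ip1, held 2 and 4 reads in KO and 0 and 0 reads in WT.

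Cntd1 encodes a cyclin-related protein that acts late, when the crossover sites are fixed and the remaining ZMM foci are lost. Cntd1 (ENSMUSG00000078653, chromosome 11, 101279012 to 101296317) had 2462 and 2985 reads, or 135 and 145 CPM, in KO replicates 1 and 2, and 6088 and 8464 reads, or 205 and 223 CPM, in WT replicates 1 and 2. Of the 9 genes it had the most reads and the smallest p-value, and it fell by 0.62 ± 0.0629 (edgeR adjusted p = 1.05e-07). Its first bases overlap those of Coa3, a gene for a mitochondrial assembly factor on the opposite strand, by 103 bases. Coa3 had 16.8 and 20.1 CPM in KO replicates 1 and 2, and 20.8 and 20.2 CPM in WT replicates 1 and 2. Both KO libraries lay below both WT libraries, the higher KO library only just. The log2 fold change of Coa3, -0.15 ± 0.108, did not pass the test (edgeR adjusted p = 0.312). Becn1, an autophagy gene on the opposite strand, shares 10366 bases with the far part of Cntd1 and fell by 0.19 ± 0.0644 (edgeR adjusted p = 0.0269). Reads were counted on the strand of the gene, so that reads of these neighbours were kept apart from those of Cntd1.

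Mlh3 encodes a subunit of the MutL gamma endonuclease, which acts in the formation of meiotic crossovers. Mlh3 (ENSMUSG00000021245, chromosome 12, 85234520 to 85270599) had 53.2 and 52.3 CPM in KO replicates 1 and 2, and 69.3 and 71.0 CPM in WT replicates 1 and 2. It had close replicates in both groups and fell by 0.41 ± 0.0700 (edgeR adjusted p = 8.07e-05). Genes that overlap the other crossover genes are small or predicted ones with at most 7 reads in a library.

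**Figure D2:**
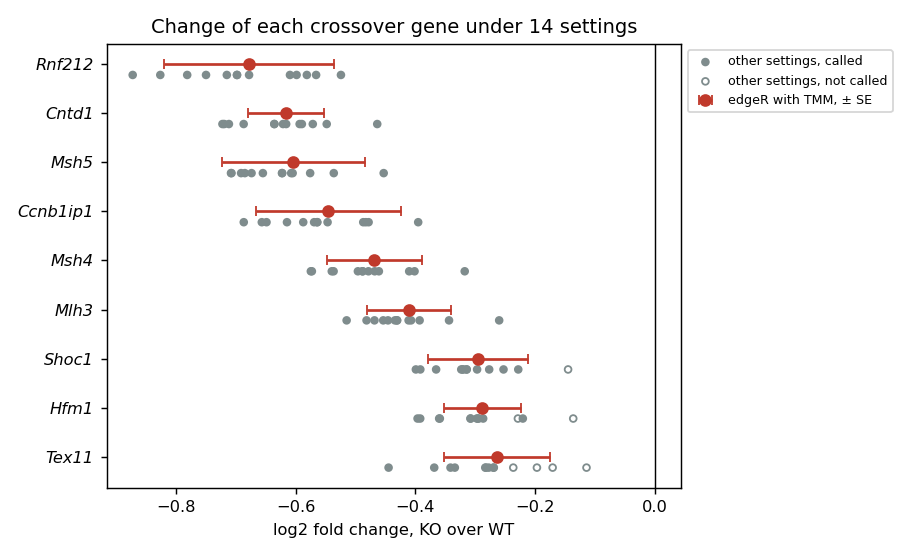
Log2 fold change (KO over WT) of each crossover gene: red points are the edgeR fit with TMM scaling, with bars of 1 SE, and grey points are the same gene under 13 other settings, open where the adjusted p was 0.05 or more. All points lie below 0; open points occur for Shoc1, Hfm1 and Tex11 only among the 9 genes.

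The 9 genes had different levels per length, given here as CPM per kilobase of counted exon length (RPKM). Cntd1 was highest in both groups, at 31.6 ± 1.58 RPKM in KO and 48.4 ± 2.75 RPKM in WT (SD, n = 2 each). Msh5 was lowest in both, at 2.02 ± 0.161 RPKM in KO and 3.07 ± 0.108 RPKM in WT. The ratio of Cntd1 to Msh5 levels was 15.6 in KO and 15.7 in WT. Msh4, the partner of Msh5, had 5.80 ± 0.253 RPKM in KO and 8.02 ± 0.549 RPKM in WT. Hfm1 (16.2 ± 0.281 RPKM in KO and 19.8 ± 1.39 RPKM in WT) and Tex11 (11.6 ± 1.72 RPKM in KO and 13.8 ± 0.543 RPKM in WT) followed Cntd1 in both groups, with no overlap between the libraries of neighbours in this order. Ccnb1ip1 and Mlh3 came next and overlapped in both groups, at 6.80 ± 0.779 and 6.98 ± 0.0779 RPKM in KO, and at 9.92 ± 0.940 and 9.29 ± 0.168 RPKM in WT. Shoc1 stood above Msh4 and Rnf212 in KO, at 5.90 ± 0.421 RPKM, and below both in WT, at 7.24 ± 0.0795 RPKM. Rnf212 had 4.96 ± 0.630 RPKM in KO and 7.94 ± 0.917 RPKM in WT. The libraries of Shoc1 and Msh4 overlapped in KO and those of Rnf212 overlapped with both Msh4 and Shoc1 in WT, so the order of these 3 genes is not settled by 2 libraries.

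**Figure D3:**
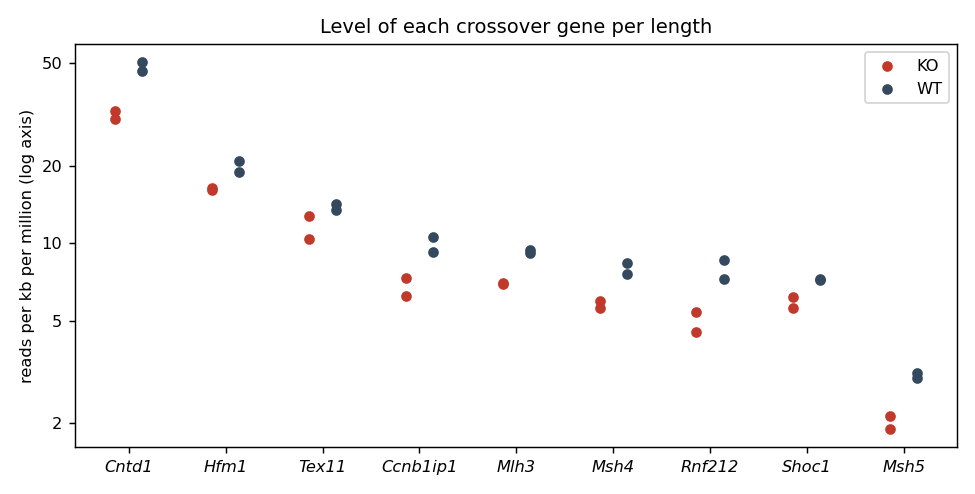
Level per length of each crossover gene (RPKM, log axis) in each library, with KO left of WT and genes in the order of their WT mean. Cntd1 is highest and Msh5 lowest in both groups, and the 5 genes between Tex11 and Msh5 lie close together.

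Promoter windows from RefSeq (GRCm38.p6, 250 bases before to 50 after the start) matched 7 of the 9 genes by symbol; Shoc1 and Tex11 are not analysed here. They were searched on both strands for short motifs of factors known to act on meiotic genes: GCGGGAA, bound by E2F6, and CACGTG, the E-box bound by MAX complexes, through which meiotic genes are kept silent in other cells; CNCCTCAG, the motif of STRA8, which switches meiotic genes on; TAACNG, bound by MYB factors including the pachytene regulator MYBL1; and TGACGTCA, the cyclic AMP response element. The motifs were chosen after the sequences were seen. The window of Rnf212 is shown as one that holds both an E2F6 motif, in capitals, and an E-box, which lies after the start and so outside the stretch printed. Printed are the 250 bases before the start on the minus strand at chr5:108775028-108775277.
Rnf212 promoter: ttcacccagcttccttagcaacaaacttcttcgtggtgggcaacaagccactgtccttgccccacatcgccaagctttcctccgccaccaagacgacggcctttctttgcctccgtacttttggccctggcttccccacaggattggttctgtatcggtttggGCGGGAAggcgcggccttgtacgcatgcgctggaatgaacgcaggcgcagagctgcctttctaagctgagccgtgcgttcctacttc

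The same E2F6 letters occur in the window of Msh5, and matches to the other motifs are shown for the remaining genes as windows of 30 bases with the motif in capitals, 5′ to 3′ on the strand of the gene.
Msh5, E2F6 motif, chr17:35046669-35046698: tgacggaaaagGCGGGAAagtgctgcgaat
Cntd1, E-box, chr11:101279004-101279033: ggagctgtagtcCACGTGgagttttctggg
Hfm1, STRA8 motif in reverse complement, chr5:106925938-106925967: cggcctgaggcCTGAGGCGcaccgtgcggt
Msh4, MYB motif, chr3:153904905-153904934: agaatggaatgaTAACAGgttaaagtgaac
Ccnb1ip1, MYB motif, chr14:50795840-50795869: gcaccttgtgaaTAACTGgtgtagacagac
No motif was shared by more than 2 of the 7 windows. The E2F6 motif was in 2 of 7 (Msh5 and Rnf212) and in 4.6% of 32851 promoter windows, the E-box in 2 (Rnf212 and Cntd1) and in 7.15%, and the STRA8 motif in 2 (Msh5 and Hfm1) and in 7.94%. The MYB motif was in 2 (Msh4 and Ccnb1ip1) and in 23.3%, and TGACGTCA in 0 and in 1.79%. Mlh3 held none of these letters. The windows also differed in base composition, between 43.3% G and C for Msh4 and 75.3% for Hfm1. A match is a description of the letters and not a measured site. The start used by RefSeq lies inside the annotated gene of GENCODE for several of them. The distance is 12004 bases for Ccnb1ip1, 1247 bases for Msh4, 431 bases for Hfm1, 191 bases for Cntd1 and 123 bases for Msh5. The E-box of Cntd1 and the STRA8 motif of Msh5 lie in annotated exons. So do 2 further matches that are not printed here. They are a second STRA8 motif of Hfm1, with its first base at -6 from the start, and a second MYB motif of Msh4, at 44. The window of Cntd1 also holds exon bases of its neighbour Coa3.

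Regions of 3000 bases directly upstream of genes were counted by the authors on both strands, and 2 of the 9 genes, Hfm1 and Shoc1, have such a region. On the strand opposite to Hfm1 there were 11 and 10 reads in KO replicates 1 and 2, and 5 and 4 reads in WT replicates 1 and 2, although the WT libraries were deeper. The log2 fold change was 1.97 ± 0.622 (edgeR adjusted p = 0.0502), which missed the threshold; of the 18596 regions tested on this strand 11.5% were higher and 0.113% were lower. On the strand of Hfm1 there were 17 and 13 reads in KO and 15 and 12 reads in WT, with a log2 fold change of 0.93 ± 0.558 (edgeR adjusted p = 0.247). This value was 0.077 with the upstream table scaled on itself. With 1 library left out it ranged from 0.61 without WT replicate 2 to 1.28 without WT replicate 1. Of 18393 regions tested on the strand of the gene, 0.0544% were higher and 0.00544% were lower. The region upstream of Shoc1 held 10 and 9 reads in KO and 6 and 9 reads in WT on its own strand, a log2 fold change of 1.13 ± 0.607 (edgeR adjusted p = 0.206). On the opposite strand it held 23 and 10 reads in KO and 14 and 45 reads in WT, where the groups overlapped (log2 fold change 0.03 ± 0.540, edgeR adjusted p = 0.97). The background rate per 1000 bases and strand was 3.01 and 3.39 reads in KO replicates 1 and 2. In WT replicates 1 and 2 it was 2.70 and 2.53 reads. Over 3000 bases these rates come close to the KO counts opposite to Hfm1 and to the counts on the strand of Shoc1. The rate was higher in KO although WT libraries were deeper, so background alone is higher in KO on the CPM scale. The log2 fold changes of these regions were not corrected for background, and its part in them was not tested. With counts this low, a change in these regions was not detectable at this depth unless large.

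Of 5 further genes of crossover formation with a row in the table, 4 were called lower, 0 higher and 1 was not called. Among all tested genes 20.3% were called lower, and among those with a level in the range of the 9 crossover genes 41.2%. The median log2 fold change of the 5 genes was -0.28, against 0.05 over all tested genes and -0.16 over those in this range. Rnf212b, which encodes a relative of RNF212, had 6.52 ± 0.165 CPM in KO and 11.1 ± 0.0540 CPM in WT (SD, n = 2 each) and fell by 0.77 ± 0.143 (edgeR adjusted p = 0.000212). Prr19, whose product works with CNTD1, fell by 0.49 ± 0.0757, the exonuclease gene Exo1 by 0.28 ± 0.0756 and the kinase gene Cdk2 by 0.24 ± 0.0629.

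Strand exchange and synapsis come before or along with crossover formation. Of 12 strand exchange genes 12 fell (median -0.49; 20.3% of all tested genes and 41.2% of those in the range of the crossover genes were called lower), among them Psmc3ip (-0.67 ± 0.0717), a partner of the recombinases, Rad54b (-0.69 ± 0.0872), Meiob (-0.52 ± 0.0661) and Tex15 (-0.49 ± 0.0599). Of 14 synapsis and axis genes 11 fell and 0 rose (median -0.40), from Syce3 (-0.88 ± 0.0646) to Hormad1 (-0.31 ± 0.0586). Rec8 (-0.20 ± 0.147), which encodes a meiotic cohesin subunit, and Six6os1 (-0.07 ± 0.0675), which encodes a protein of the synaptonemal complex, did not pass. Neither did Rad21l (-0.10 ± 0.134), whose KO and WT libraries overlapped and which was named after its values were seen.

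Other lists hold genes that also process DNA outside meiosis. Of 14 genes for dissolution of recombination intermediates and for structure-specific nucleases, 7 fell, 0 rose and 7 did not pass (median -0.28), a share near the 41.2% called lower among genes in the range of the crossover genes. In the dissolution pathway the helicase gene Blm fell by 0.48 ± 0.0659, Rmi1 by 0.36 ± 0.101, Rmi2 by 0.51 ± 0.155 and Top3a by 0.33 ± 0.0739. Of the 7 genes that did not pass, 4 had both KO libraries below both WT libraries: Fancm (-0.21 ± 0.0892), Eme1 (-0.24 ± 0.113), Gen1 (-0.24 ± 0.119) and Ercc1 (-0.19 ± 0.102). The same separation was seen for 32.7% of all tested genes and 57.8% of those in the range of the crossover genes. A count of 4 in 7 is near the second share. The nuclease genes Mus81 (0.04 ± 0.156), Eme2 (-0.06 ± 0.145) and Slx1b (-0.01 ± 0.129) did not pass, and their KO and WT libraries overlapped; Gen1, Ercc1 and these 3 were named after their values were seen. Mus81 encodes the nuclease of a crossover route that does not use ZMM proteins. Of 15 mismatch repair genes outside the crossover list, 12 fell and 0 rose (median -0.33), including Msh6 (-0.35 ± 0.0613), Rfc2 (-0.65 ± 0.0761) and Rpa1 (-0.57 ± 0.0680). Pms1 (-0.29 ± 0.124), Rfc5 (-0.29 ± 0.117) and Rfc1 (-0.07 ± 0.0638) did not pass. The KO and WT libraries of Rfc1 overlapped, and it was named after its values were seen. Differences between these lists were not tested.

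**Figure D4:**
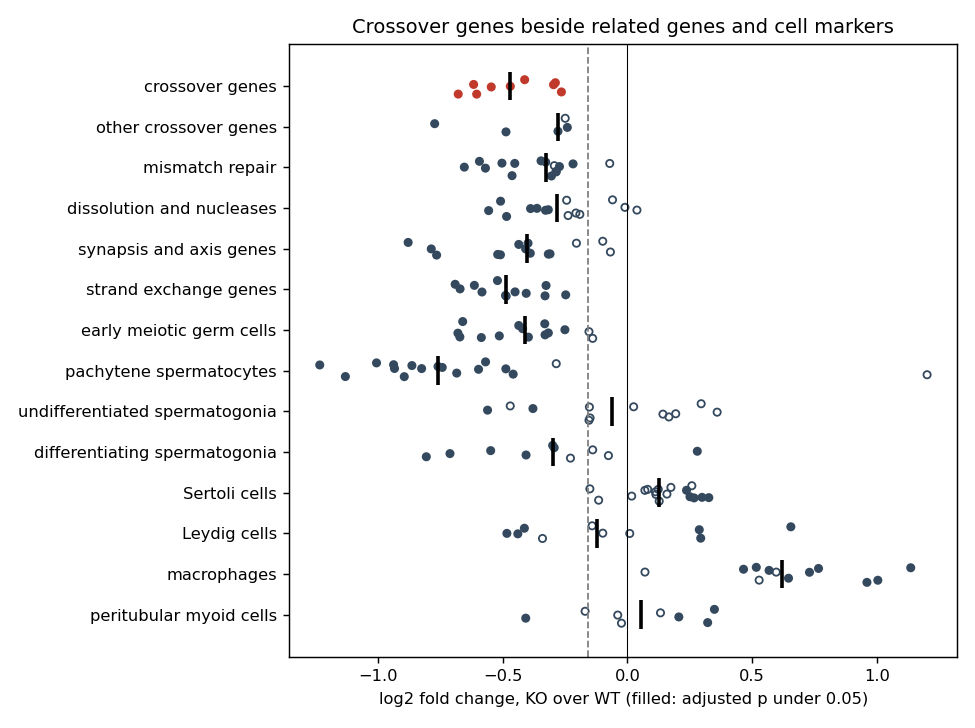
Log2 fold change (KO over WT) of the 9 crossover genes (red), of genes of related pathways and of cell type markers (dark), filled where the adjusted p was under 0.05; black bars are list medians and the dashed line is the median of -0.16 over tested genes of similar level. The crossover genes (median -0.47) lie between early meiotic markers (-0.41) and pachytene markers (-0.76).

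Markers of the cells of the testis moved in the same comparison. For scale, 20.3% of all tested genes were called lower and 11.6% higher. Among genes in the range of the crossover genes 41.2% were called lower. Of 17 pachytene spermatocyte markers 15 fell and 0 rose (median -0.76), and of 14 early meiotic markers 12 fell and 0 rose (median -0.41); the second list shares Sycp1, Smc1b and Dmc1 with the lists above. Summed over its markers, the pachytene level was 3345 and 3097 CPM in KO replicates 1 and 2, and 4989 and 5153 CPM in WT replicates 1 and 2, and Hspa2 alone gave a mean of 1213 CPM in KO and 1700 CPM in WT. The early meiotic sum was 2188 and 2163 CPM in KO and 2878 and 2930 CPM in WT. Of 12 markers of undifferentiated spermatogonia 2 fell and 0 rose, and of 10 of differentiating spermatogonia 6 fell and 1 rose. Of 17 Sertoli cell markers 5 rose and 0 fell, with a sum of 9444 and 9237 CPM in KO and 8784 and 8608 CPM in WT, and of 12 macrophage markers 9 rose and 0 fell, with a sum of 305 and 299 CPM in KO and 187 and 185 CPM in WT. Leydig cell markers (3 rose and 3 fell of 10) and peritubular myoid markers (3 rose and 1 fell of 8) went both ways. No marker was at 0 in any library. The part of cell composition in the changes of the crossover genes was not tested.

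The level of the crossover genes was also set against these sums. Their own summed level was 451 and 447 CPM in KO replicates 1 and 2, and 593 and 632 CPM in WT replicates 1 and 2. Divided by the early meiotic sum this gave 0.206 and 0.206 in KO, and 0.206 and 0.216 in WT, and the groups overlapped. Against the synapsis and axis sum it gave 0.152 and 0.152 in KO, and 0.148 and 0.153 in WT, also with overlap. The early meiotic and the synapsis sums are not separate. Both hold Sycp1 (mean of 825 CPM in KO and 1115 CPM in WT) and Smc1b (613 CPM in KO and 764 CPM in WT), which weigh heavily in each. Divided by the pachytene sum it gave 0.135 and 0.144 in KO, and 0.119 and 0.123 in WT, so that relative to pachytene markers the crossover genes were higher in both KO libraries. Divided by the Sertoli cell sum it gave 0.0478 and 0.0483 in KO, and 0.0676 and 0.0734 in WT, and divided by the macrophage sum 1.48 and 1.49 in KO, and 3.17 and 3.42 in WT. These are ratios of sums in which highly expressed genes weigh most, Cntd1 and Hfm1 among the crossover genes, and they carry no test.

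**Figure D5:**
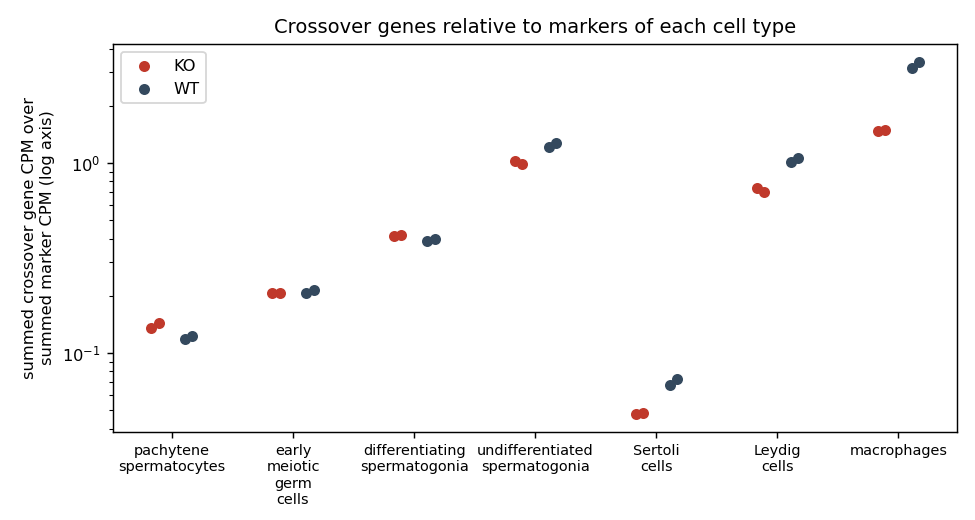
Summed CPM of the 9 crossover genes divided by the summed CPM of each marker list (log axis) in each library, with KO left of WT. Values relative to early meiotic markers overlap between groups (0.206 and 0.206 in KO, 0.206 and 0.216 in WT), those relative to pachytene markers are higher in KO, and those relative to Sertoli cell and macrophage markers are lower in KO.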

How the data were processed

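Per the file headers, the authors counted reads with featureCounts 1.6.4 on the strand of each gene with the GENCODE M18 annotation; the deposited values are raw read counts, and multi-mapping reads were not requested. The same counter was used for upstream regions on both strands. Cutadapt, HISAT2 and GRCm38.p5 are listed, per the submitters' processing notes, without tool versions. Of the gene IDs, 99.72% had a symbol in GENCODE M21.

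The test was edgeR's quasi-likelihood test (version 4.0.16, R version 4.3.3; filterByExpr, TMM, robust fit, genotype as the term, Benjamini-Hochberg over all tested genes, threshold 0.05). TMM factors were 1.03 and 1.07 in KO replicates 1 and 2, and 0.955 and 0.943 in WT replicates 1 and 2. The SE of a log2 fold change is its size over the square root of F. Upstream regions used the library sizes and factors of the genes. Replicates differed beyond sampling noise (chi-square per degree of freedom 5.98 in KO and 5.04 in WT). Background is the trimmed mean of upstream regions of untested genes. DESeq2 1.42.0 and the other settings are alternatives. The genes and lists were chosen with earlier results of these data known. Named are the 9 genes, Dis3, neighbours that overlap or start nearby, and the 3 nearest profiles. Of each pathway list called genes are named, and up to 2 uncalled ones by smallest p, with further uncalled ones where stated. Examples among called genes were chosen after their values were seen. Spo16 and Redic1 were not matched by symbol and are not used here, and Hop2 is counted as Psmc3ip. Some genes of the lists are counted in them but not reported here by name.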

Additional observations from a re-analysis of the deposited data

How the results depend on the processing

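The 9 genes were lower in KO under all 13 alternatives, 12 planned and 1 (libraries thinned to equal depth) chosen after seeing the data. Of 117 values, 109 kept their call and 8 lost it. Scaling to library totals alone, under which the median log2 fold change of all genes was 0.20 against 0.05 with TMM, and that of the 9 genes -0.32 against -0.47, ended the calls of Hfm1 (-0.14), Shoc1 (-0.15) and Tex11 (-0.11) and left 6 genes called. It gave 5386 genes higher and 2971 lower in KO, against 2906 and 5092 with TMM, and 2 further crossover genes, 7 mismatch repair genes and 3 dissolution and nuclease genes lower. Scaling to Sertoli cell markers moved the median of all genes to -0.05 and gave 11 of the last list. Tex11 also lost its call with DESeq2 (-0.28, adjusted p = 0.058) and with a filter of 1 CPM in 2 libraries (-0.20). Leaving out 1 library gave log2 fold changes from -0.44 to -0.17 for Tex11 and from -0.40 to -0.23 for Hfm1, and between 1324 and 2429 genes higher in KO (1521 without KO replicate 1, 1324 without KO replicate 2 and 1537 without WT replicate 2). The count of higher genes was 1008 with DESeq2, 1937 without a filter and 1204 after background was subtracted. The cause of these changes was not tested. The value opposite to Shoc1 turned to -0.97 with the upstream table scaled on itself, and ranged from -0.79 to 0.86 with 1 library left out. Samples share only a replicate number (correlation of deviations 0.066); with the replicate number as a block, 9 genes were lower and 3361 genes were higher and 5469 lower in all. Depth limits the upstream regions, at 4 to 45 reads a library.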

Other observations

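Genes outside the lists whose pattern over the 4 libraries was most like the median of the 9 crossover genes were Dcaf6, Nras and Spidr. The measure was the root mean square difference of log2(CPM + 0.5), centred on each gene's mean, and it was 0.0103, 0.0104 and 0.011 for these genes. Of 13277 genes searched, 679 lay within 0.05, so a profile of this shape was common among the genes searched. Among the crossover genes themselves the difference from their median ranged from 0.0208 for Mlh3 to 0.171 for Rnf212.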
